A study of Mus musculus with 35 samples.

Results

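The genes described here were 9 genes of the oligodendrocyte lineage, taken by symbol from the 55401 genes counted in mRNA of CD45+ cells of the mouse brain. They were 2 genes of the precursor cell (Pdgfra and Cspg4), 4 transcription factors of the lineage (Olig1, Olig2, Sox10 and Myrf) and 3 genes of myelin (Mbp, Mog and Mobp). All 9 were among the 17612 genes that reached 0.5 CPM (counts per gene scaled to a common library size) in at least 5 mice. Whole brains of wild-type C57BL/6 mice of both sexes were dissociated, cells were captured on plates by an antibody to CD45, a surface protein of blood-derived cells and microglia, and 1 mRNA library was made per mouse. The groups were postnatal day 6 (P6; 4 females and 6 males), postnatal day 15 (P15; 6 and 6) and 8 weeks (6 and 6), with no treatment and no altered allele in any of them. The comparison of interest was between ages, with the precursor genes set against the myelin genes.

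Oligodendrocytes are the cells that wrap axons of the brain in myelin. They arise after birth from precursor cells that divide in response to platelet-derived growth factor and carry its receptor, and that leave this state as they begin to make myelin. Most myelin of the mouse brain is laid down in the weeks after birth. Microglia, the resident phagocytes of the brain, carry CD45 and belong to another lineage, that of the blood.

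The libraries held 23316107 to 38965078 counted fragments each, so that 3 fragments, the smallest number read as more than absence, corresponded to 0.0770 to 0.129 CPM. Microglia were present as labelled, since the summed level of 5 microglial markers (Tmem119, P2ry12, Sall1, Cx3cr1 and Siglech) was 3538 to 6692 CPM at P6, 7686 to 15762 CPM at P15 and 11021 to 15451 CPM at 8 weeks. The library labelled P6 female 6 stood apart and was left out of the values below; the study's methods state that an outlying mouse was removed after multidimensional scaling. In P6 female 6 the microglial sum was 1627 CPM, with the 35 libraries scaled together, and each of the 9 genes lay above all 10 other P6 mice, at 2.35 (Cspg4) to 6.63 times (Mobp) the P6 median. The summed markers of 5 other cell types were also above all other P6 mice in this library. The sums of mural cells (1293 against at most 1338 CPM) and endothelial cells (112 against at most 125 CPM) were not. Within the 5 lists the single genes were also above, except Dcx, Sox11, Dlx2, Neurod1 and Sp8 of immature neurons, Prx and Ncmap of Schwann cells and Lum of fibroblasts. The sums were 1528 against at most 947 CPM for neurons, 2315 against at most 2049 for immature neurons and 2506 against at most 1341 for astrocytes. They were 400.5 against at most 293 for fibroblasts and 29.1 against at most 15.9 for Schwann cells. With it included, the P15 against P6 difference of Myrf was 0.54 (edgeR adjusted p = 0.229) in place of 1.05 ± 0.35, and that of Olig1 was -0.64 (adjusted p = 0.0487) in place of -0.48 ± 0.28. No other call on the 9 genes between ages depended on this library.

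In GRCm38/mm10 coordinates Pdgfra lies at chr5:75152292-75198215 (+ strand), Cspg4 lies at chr9:56865033-56899870 (+ strand), Olig1 at chr16:91269772-91271933 (+), Olig2 at chr16:91225457-91228677 (+), Sox10 at chr15:79154908-79165240 (-), Myrf at chr19:10208272-10240748 (-), Mog at chr17:37010743-37023398 (-) and Mobp at chr9:120149707-120181484 (+). All 9 are protein-coding genes, and the values below count fragments over all of their exons.

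Start-site sequences were available for 5 of the 9 genes from RefSeq on GRCm38.p6 (Pdgfra, Cspg4, Olig2, Mog and Mobp), and not for Olig1, Sox10, Myrf or Mbp. Shown here are those of the myelin genes Mobp and Mog, which rose together, and of Pdgfra, the gene that fell most. Each runs from 250 bases before to 50 bases after the start of transcription, on the strand of the gene, 5′ to 3′: Mobp at chr9:120149492-120149791 (+ strand), Mog at chr17:37023349-37023648 (- strand) and Pdgfra at chr5:75152001-75152300 (+ strand). Capitals mark the SOX core ACAAAG or ACAATG on either strand (CTTTGT or CATTGT when read on the other), letters that proteins of the SOX family, Sox10 among them, are known to bind.
Mobp: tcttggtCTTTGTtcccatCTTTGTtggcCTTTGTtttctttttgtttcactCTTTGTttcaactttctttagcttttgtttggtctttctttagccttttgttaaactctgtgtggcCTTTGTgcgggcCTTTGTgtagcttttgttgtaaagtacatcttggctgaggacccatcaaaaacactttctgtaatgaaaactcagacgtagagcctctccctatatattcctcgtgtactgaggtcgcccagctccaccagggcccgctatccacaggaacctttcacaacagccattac
Mog: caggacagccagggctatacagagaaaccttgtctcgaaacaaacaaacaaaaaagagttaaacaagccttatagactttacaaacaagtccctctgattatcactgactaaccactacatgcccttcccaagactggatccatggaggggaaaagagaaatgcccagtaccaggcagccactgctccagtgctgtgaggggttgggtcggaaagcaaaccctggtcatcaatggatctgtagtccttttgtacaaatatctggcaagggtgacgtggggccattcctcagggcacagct
Pdgfra: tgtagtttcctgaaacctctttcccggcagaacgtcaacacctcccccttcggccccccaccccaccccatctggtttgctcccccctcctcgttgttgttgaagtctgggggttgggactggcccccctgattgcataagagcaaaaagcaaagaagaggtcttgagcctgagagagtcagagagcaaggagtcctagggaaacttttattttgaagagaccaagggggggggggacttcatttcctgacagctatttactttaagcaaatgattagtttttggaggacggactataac
The Mobp window held 6 SOX cores, all of them ACAAAG on the opposite strand, with first letters from -243 to -120 relative to the start. The windows of Mog, Pdgfra and Cspg4 held none and that of Olig2 held 1, CATTGT. Of 27025 RefSeq start-site windows of this length, 28.8% held at least 1 SOX core, 5.52% at least 2 and 1 window at least 6. A match describes the letters of the window and does not show binding, and the absence of a match says only that these letters are not in this window.

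Pdgfra, the receptor through which platelet-derived growth factor drives the division of precursor cells, was highest at P6 and lowest at 8 weeks. Its level was 58.1 to 210.4 CPM (median 115) at P6, 15 to 62.8 CPM (median 41) at P15 and 6.49 to 23.2 CPM (median 10.9) at 8 weeks. The P6 and 8-week mice did not overlap, as 14.8% of all genes did not in this direction. The lowest P6 mouse, male 5, was at 58.1 CPM and the highest 8-week mouse, female 1, at 23.2 CPM. At P6 the highest mice were female 5 (210.4 CPM) and male 6 (181 CPM), and the 8 others ranged from 58.1 to 123 CPM. Cspg4 codes for the NG2 proteoglycan on the surface of precursor cells and also of mural cells, the pericytes and smooth muscle cells of vessels. It was at 29.3 to 119 CPM (median 87.2) at P6, 16.2 to 165 CPM (median 54.6) at P15 and 14.4 to 94.4 CPM (median 38.6) at 8 weeks. Its ages overlapped throughout, and P15 male 1, at 165 CPM, lay above every P6 mouse.

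Olig1 and Olig2 are basic helix-loop-helix factors present from the precursor onward, Olig2 being needed to form the lineage. Olig1 ranged over 47.3 to 209.5 CPM (median 114) at P6, 34.6 to 266 CPM (median 84.7) at P15 and 20.3 to 74.8 CPM (median 36) at 8 weeks. Olig2 ranged over 12.5 to 62.2 CPM (median 36.9), 7.42 to 59.5 CPM (median 19.2) and 8.44 to 31.8 CPM (median 14) in the same order. For both factors the highest P6 mouse was female 5 and the highest P15 mouse was male 1, and neighbouring ages overlapped. Sox10, a high-mobility-group factor held through the whole lineage, was at 9.05 to 38.9 CPM (median 19.1) at P6, 5.91 to 62.3 CPM (median 14.3) at P15 and 2.24 to 12.5 CPM (median 4.71) at 8 weeks. Myrf, the factor that switches on myelin genes in differentiating cells, had its highest median at P15: 3.38 to 10.7 CPM (median 7.43) at P6, 4.73 to 60.1 CPM (median 11.6) at P15 and 2.28 to 14.2 CPM (median 4.4) at 8 weeks. P15 male 1 (60.1 CPM) and male 2 (27.6 CPM) lay above the other 32 of the 34 mice for Myrf, and 6 of 12 P15 mice lay within the P6 range.

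Mbp (myelin basic protein, which seals the inner faces of the myelin membrane), Mog (myelin oligodendrocyte glycoprotein, on its outer face) and Mobp (a small basic protein of central myelin) were lowest at P6 and had their highest medians at P15. Mbp was at 83.5 to 323 CPM (median 141) at P6, 385 to 2177 CPM (median 911) at P15 and 182 to 1226 CPM (median 293) at 8 weeks. Mog was at 0.615 to 2.56 CPM (median 1.34), 7.1 to 79.7 CPM (median 12.2) and 2.47 to 15.3 CPM (median 4.6), with 21 to 103 fragments per P6 library. Mobp was at 1.39 to 32.6 CPM (median 14.3), 74.1 to 232 CPM (median 139.5) and 46.5 to 352 CPM (median 85.1). For each of the 3 myelin genes all 12 P15 mice lay above all 10 P6 mice, as was so for 5.25% of all genes tested. None of the 9 lay lower in all P15 mice, as 7.72% of all genes did. Within an age the same mice tended to stand high. P15 male 1 was the highest P15 mouse for Mbp (2177 CPM), Mog (79.7 CPM) and Mobp (232 CPM), and 8-week male 3 was the highest at 8 weeks for all 3, with Mbp at 1226 CPM against 566 CPM in the next mouse. P6 female 5, the highest P6 mouse for both precursor genes, was the lowest for Mobp at 1.39 CPM, where the 9 other P6 mice were at 6.8 CPM or more. The Mbp locus also gives golli transcripts, which are known from blood cells and neurons, and counts per gene do not separate them from the myelin transcripts.

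**Figure D1:**
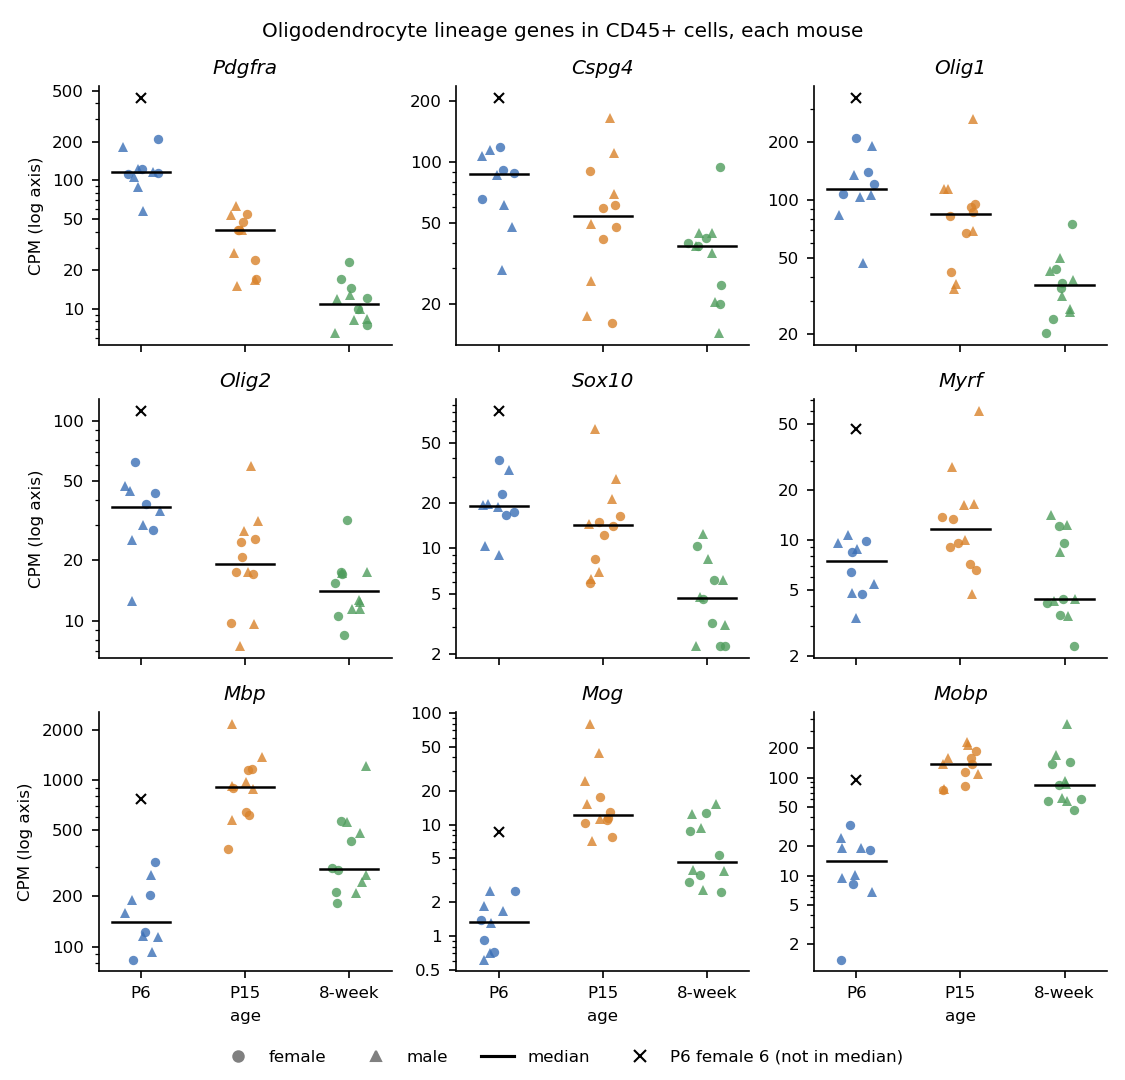
Level of each of the 9 genes in CPM on a log axis by age, with 1 point per mouse (circles females, triangles males), a bar at the median of each age and a cross for P6 female 6, which is not in the median. Pdgfra steps down at each age (medians 115, 41 and 10.9 CPM), while all P15 points of Mbp, Mog and Mobp lie above their 10 P6 points.

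Between P6 and P15 the myelin genes rose, Pdgfra fell, and Cspg4 and most lineage factors showed smaller differences. In edgeR's quasi-likelihood test with Benjamini-Hochberg adjustment over all genes tested, 4 of the 9 genes were higher at P15, against 30.4% of all genes tested, and 2 were lower, against 31.4% of all genes. The log2 difference was 3.73 ± 0.44 (SE; adjusted p = 1.15e-08) for Mog, 3.23 ± 0.41 (SE; adjusted p = 4.16e-08) for Mobp and 2.51 ± 0.33 (SE; adjusted p = 7.15e-08) for Mbp. These 3 genes, whose P15 mice all lay above the P6 mice, also passed the test for a rise over 2-fold, as did 4.87% of all genes. Myrf rose by 1.05 ± 0.35 (SE; adjusted p = 0.00955). Pdgfra fell by 1.77 ± 0.24 (SE; adjusted p = 1.74e-07), with 11 of 12 P15 mice below all P6 mice, and was the 1 gene of the 9 to pass for a fall over 2-fold, as did 4.85% of all genes. Olig2 was lower by a log2 difference of -0.75 ± 0.27 (SE; adjusted p = 0.0175). Cspg4, Olig1 and Sox10 did not pass, at -0.40 ± 0.33 (adjusted p = 0.286), -0.48 ± 0.28 (adjusted p = 0.131) and -0.32 ± 0.35 (adjusted p = 0.434). The libraries are bulk and CPM is a share of each library. Fewer cells of a type, less RNA per cell and a larger share of other cells therefore cannot be told apart. How much RNA of other cells was carried over into the CD45 capture at each age was not tested. Without P15 males 1 and 2, a choice made after their high values were seen, Myrf was at 0.56 (adjusted p = 0.117) and no longer passed, and Olig1 at -0.86 (adjusted p = 0.00379) and Sox10 at -0.81 (adjusted p = 0.032) passed as lower. Without male 1 alone, Olig1 also passed, at -0.75 (adjusted p = 0.00833).

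Between P15 and 8 weeks all 9 differences were negative. Of the 9 genes, 6 passed as lower at 8 weeks, against 23.9% of all genes tested, and 0 passed as higher, against 24% of all genes. The largest was again Pdgfra at -1.66 ± 0.23 (SE; adjusted p = 1.09e-06), the 1 gene of the 9 to pass for a fall over 2-fold (3.07% of all genes), and 0 passed for a rise over 2-fold (1.2% of all genes). Sox10 fell by 1.61 ± 0.34 (SE; adjusted p = 0.000275), Olig1 by 1.27 ± 0.27 (adjusted p = 0.000251) and Myrf by 1.12 ± 0.32 (adjusted p = 0.00512) on the log2 scale. Mog (-1.46 ± 0.36, adjusted p = 0.00122) and Mbp (-1.25 ± 0.28, adjusted p = 0.000602) were also lower at 8 weeks. Mobp did not pass, at -0.35 ± 0.33 (adjusted p = 0.401), nor did Cspg4 (-0.72 ± 0.31, adjusted p = 0.0556) or Olig2 (-0.54 ± 0.26, adjusted p = 0.0827). The call depended on the mice for Cspg4 and Olig2, and on the tool and the model for Cspg4. With the replicate number as a block in the edgeR fit, Cspg4 passed at -0.77 (adjusted p = 0.0366). Cspg4 passed with DESeq2 (-0.73, adjusted p = 0.0325) and in 8 of the 34 edgeR fits that left out 1 mouse, at -0.91 without 8-week female 1 and from -0.84 to -0.72 without 8-week male 4, P15 female 4, P15 males 3, 5 or 6, or P6 males 4 or 5. Olig2 passed in 4 of them, at -0.69 without 8-week female 1, -0.64 without P15 female 4, -0.65 without P15 male 5 and -0.66 without P15 male 6. Without P15 males 1 and 2 the difference of Myrf was -0.65 (adjusted p = 0.0776), and Pdgfra did not pass for a fall over 2-fold in that fit, without P15 male 4, with limma-voom or with DESeq2.

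Over the whole interval from P6 to 8 weeks, the precursor genes and 3 of the 4 lineage factors fell and the myelin genes rose. Of the 9 genes, 5 were lower at 8 weeks (36.6% of all genes tested were) and 3 were higher (37.8% of all genes). Pdgfra changed by -3.43 ± 0.25 (SE; adjusted p = 1.87e-13), Sox10 by -1.93 ± 0.35 (SE; adjusted p = 1.29e-05) and Olig1 by -1.75 ± 0.28 (SE; adjusted p = 1.44e-06) on the log2 scale, and these 3 passed for a fall over 2-fold, as did 12.4% of all genes. Olig2 fell by 1.30 ± 0.27 (adjusted p = 9.21e-05) and Cspg4 by 1.12 ± 0.33 (adjusted p = 0.00272). Mobp rose by 2.88 ± 0.40 (SE; adjusted p = 1.23e-07) and Mog by 2.27 ± 0.41 (SE; adjusted p = 1.1e-05), both past the test for over 2-fold (11.5% of all genes), and all 12 8-week mice lay above all 10 P6 mice for Mobp (14.8% of all genes) and 11 of 12 for Mog. Mbp rose by 1.26 ± 0.31 (SE; adjusted p = 0.00049), with 5 of 12 mice above all P6 mice. Myrf, at -0.07 ± 0.34 (adjusted p = 0.852), did not pass. The median log2 difference over the 9 genes was -0.32 for P15 against P6, -1.25 for 8 weeks against P15 and -1.12 for 8 weeks against P6, beside -0.01, 0.02 and 0.04 over all genes tested.

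**Figure D2:**
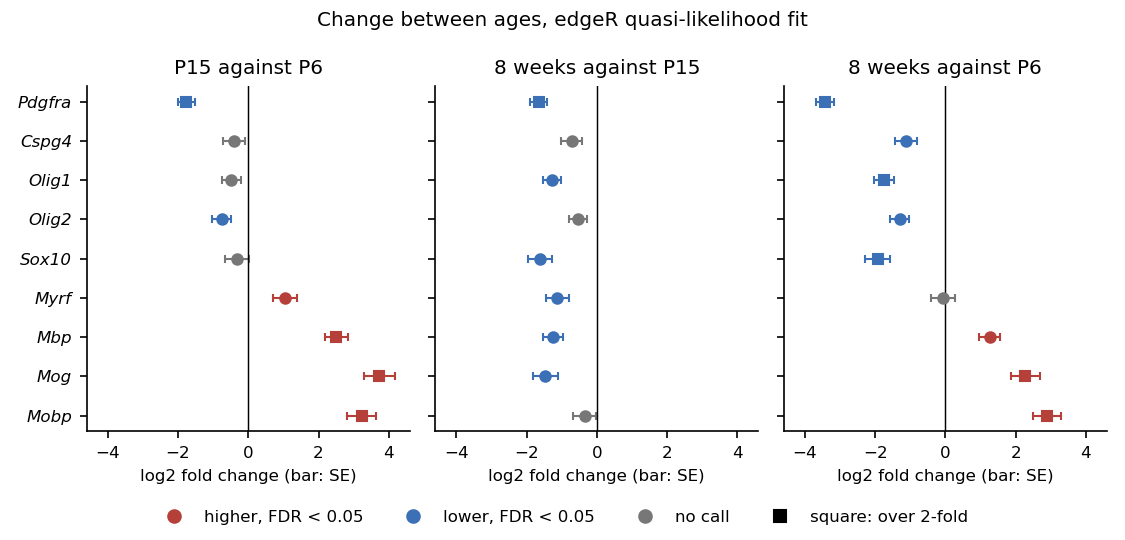
Log2 fold change with its standard error for the 9 genes in the 3 age comparisons, coloured by direction where the adjusted p was below 0.05 and drawn as squares where the change passed the test for over 2-fold. Pdgfra lies left of zero in each panel (at -1.77, -1.66 and -3.43), and Mbp, Mog and Mobp lie right of zero against P6 and left of zero between P15 and 8 weeks.

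Setting a myelin gene against a precursor gene within the same library removes the scaling between libraries. Each of the 6 ratios of Mbp, Mog or Mobp to Pdgfra or Cspg4 was higher at P15 than at P6, and all 12 P15 mice lay above all 10 P6 mice for each of them. The log2 ratio of Mbp to Cspg4 differed by 3.11, the least of the 6, and that of Mog to Pdgfra by 5.45, the most. For Mbp to Pdgfra the log2 ratio was 0.39 ± 0.75 (SD, n = 10) in P6 mice, 4.76 ± 0.82 (SD, n = 12) at P15 and 4.99 ± 0.75 (SD, n = 12) at 8 weeks. In two-sided permutation tests with 100000 resamples, each of the 6 had p = 1e-05, the smallest the resampling can give, and 1.5e-05 after Benjamini-Hochberg adjustment over the 18 ratio tests. The same p-values were found for 8 weeks against P6, where the differences ran from 2.35 (Mbp to Cspg4) to 6.42 (Mobp to Pdgfra). The ratios of a pair share genes, so the 6 are not separate pieces of evidence.

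Between P15 and 8 weeks the ratios did not move together. Mobp rose against Pdgfra by 1.08 (permutation adjusted p = 0.00162), with 4 of 12 8-week mice above all P15 mice, while Mog fell against Cspg4 with a log2 difference of -0.89 (permutation adjusted p = 0.0388), with 6 of 12 mice below all P15 mice. The fall of Mog against Cspg4 did not pass without P15 males 1 and 2 (-0.72, adjusted p = 0.111), nor in 12 of the 34 repeats that left out 1 mouse each, those without 8-week females 1 to 5, 8-week males 5 and 6, P15 female 4 or P15 males 1, 2, 3 and 6 (-0.87 to -0.78). The other 4 ratios did not pass, at 0.23 (Mbp to Pdgfra), 0.10 (Mog to Pdgfra), 0.10 (Mobp to Cspg4) and -0.76 (Mbp to Cspg4). Without 8-week male 3 the last was -1.03 (permutation adjusted p = 0.00235). As mean levels, myelin minus precursor in log2 CPM was -2.82 ± 0.99 (SD, n = 10) in P6 mice, 1.58 ± 0.73 (n = 12) at P15 and 1.56 ± 0.87 (n = 12) at 8 weeks. Both means were lower at 8 weeks than at P15, the precursor mean going from 5.36 ± 0.85 to 4.29 ± 0.53 and the myelin mean from 6.94 ± 0.71 to 5.85 ± 0.84. At this step myelin minus precursor changed by -0.02, but by 0.47 with Pdgfra alone and by -0.52 with Cspg4 alone, so it averages opposite directions.

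**Figure D3:**
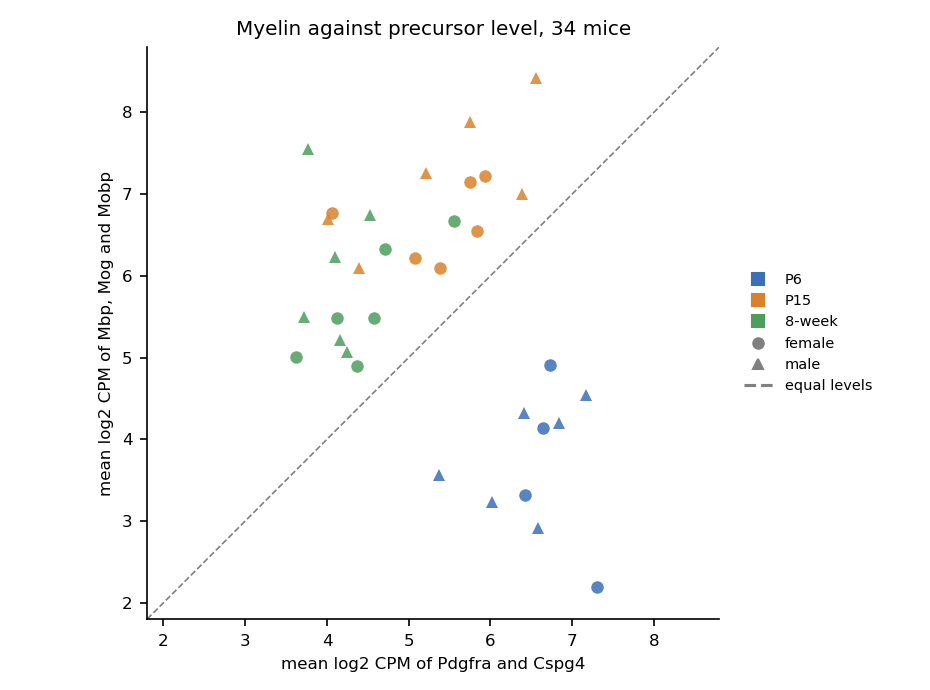
Mean log2 CPM of Mbp, Mog and Mobp against mean log2 CPM of Pdgfra and Cspg4, with 1 point per mouse, coloured by age and shaped by sex, and a dashed line where both are equal. All 10 P6 mice lie below the line, at a difference of -1.81 or less, and all 24 older mice lie above it, at 0.53 or more.

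Scaled to the summed exon length of each gene (RPKM, the CPM divided by the exon length in kilobases), Olig1 had the highest median level of the 9 at P6 (52.8) and Mbp at P15 (108) and 8 weeks (34.6). At P6 the order by this median was Olig1, Mbp, Olig2, Pdgfra, Cspg4, Sox10, Mobp, Myrf and Mog, from 52.8 down to 0.787. Mbp, Olig1, Mobp and Olig2 led at P15, followed by Mog, Sox10, Cspg4, Pdgfra and Myrf (1.36). The order at 8 weeks was Mbp, Olig1, Mobp, Olig2, Cspg4, Mog, Sox10, Pdgfra and Myrf (0.513). At each age all 8 pairs of neighbours in the order overlapped in the range of their mice. Pdgfra thus went from place 4 to place 8 and Mobp from place 7 to place 3 between P6 and P15. Some exon bases are shared with other annotated genes: 30 bases of Pdgfra with Mir7025 and 79 bases of Mobp with Gm38642 on the same strand, and 622 bases of Pdgfra (Gm42802 and Gm42803) and 157 bases of Olig1 (Gm15966) on the other strand, which the stranded counting is stated to separate.

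No difference between males and females was called for the 9 genes at any age, in a comparison where few genes of any kind were called. With edgeR, 0 of 9 passed at P6, P15 or 8 weeks, where 0.0397%, 0.0454% and 0.0908% of all genes were higher in males and 0.0114%, 0.0227% and 0.0227% were lower, and the count was also 0 with limma-voom, with DESeq2 and in each of the 34 edgeR fits that left out 1 mouse. Likewise 0 of 9 passed for a difference over 2-fold, as 0.0341% of all genes did at each age as higher in males and 0.0114% as lower. At an unadjusted p below 0.05 3 of the 9 stood out in P15 mice and 0 in P6 or 8-week mice. Such a p was found for 7.1% of all genes at P6, 18.2% in P15 mice and 2.94% in 8-week mice. The 3 were Mog (1.36 ± 0.50, SE; adjusted p = 0.252), Myrf (1.18 ± 0.45; adjusted p = 0.252) and Sox10 (0.96 ± 0.47; adjusted p = 0.271), each with the higher mean in males. Without males 1 and 2 none of the 9 had such a p, and these 3 were at 0.28, 0.24 and 0.02. The differences between ages were not called as different between the sexes for any of the 9 (0 of 9 in each of the 3 comparisons, with 0% of all genes called by edgeR). None of the 9 had an unadjusted p below 0.05 in these tests, though up to 3 did for P15 against P6 in fits that left out 1 mouse. Of all genes, 20.4% had one for P15 against P6, 3.41% for 8 weeks against P15 and 5.1% for 8 weeks against P6.

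Other genes of the lineage were read beside the 9. Their lists were drawn up from general knowledge of the lineage, but with earlier results of these data known, so their counts are not independent support. Of all genes tested, 30.4% were higher and 31.4% lower at P15 than at P6. From P15 to 8 weeks 24% were higher and 23.9% lower, and over the whole interval 37.8% were higher and 36.6% lower. Of 12 other precursor genes, 8 were lower at P15 than at P6 and 1 was higher, with a median log2 difference of -0.76, and 9 were lower at 8 weeks than at P15 (median -1.25). Vcan, coding for the matrix proteoglycan versican, fell first by 1.75 ± 0.29 (SE) and then by 1.18 ± 0.28 on the log2 scale, from 30.2 to 89.8 CPM (median 55.8) at P6 to 1.76 to 10.6 CPM (median 7.05) at 8 weeks. The phosphatase gene Ptprz1, the highest of the list, was at -0.75 ± 0.29 from P6 to P15 (adjusted p = 0.0276) and did not pass from P15 to 8 weeks (-0.55 ± 0.28). Pcdh15 (protocadherin 15) fell between P6 and P15 (-1.27 ± 0.31), as did Lhfpl3 (-1.20 ± 0.26) and Cacng4 (-0.88 ± 0.24), which codes for an auxiliary protein of AMPA receptors. Tnr (tenascin R) did not pass at that step (0.40 ± 0.30, adjusted p = 0.252) and fell by 1.91 ± 0.29 between P15 and 8 weeks, and C1ql1 fell at both (-0.77 ± 0.29 and -2.12 ± 0.30). Neu4, a sialidase, was the 1 gene of the list to rise, by 1.95 ± 0.37 from P6 to P15, before it fell by 2.05 ± 0.35 to 8 weeks. From P6 to 8 weeks 11 of the 12 were lower and 0 higher.

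Genes of committed precursors, the cells between the precursor and the myelinating stage, rose or did not pass from P6 to P15 and moved in different directions after it. Of 7 such genes, 5 were higher at P15 than at P6 and 0 lower (median 0.74), and with P6 female 6 included 3 were higher. At 8 weeks 1 was higher and 3 were lower than at P15 (median -0.52). Gpr17, a receptor seen briefly in committed precursors, was at 33.9 to 156 CPM (median 86.4) at P6, 37.1 to 348 CPM (median 98.5) at P15 and 5.64 to 21.8 CPM (median 10.8) at 8 weeks, and all 12 8-week mice lay below all P15 mice (-3.25 ± 0.33, adjusted p = 2.11e-09). Enpp6, an enzyme of newly forming oligodendrocytes, rose by 1.13 ± 0.33 to P15 and fell by 3.04 ± 0.33 to 8 weeks. Itpr2 (an inositol trisphosphate receptor) rose at both steps (1.17 ± 0.09 and 0.54 ± 0.08), and Tns3 and Tcf7l2 rose to P15 (0.74 ± 0.10 and 0.67 ± 0.09) with no call after it. In P6 female 6, where the 9 genes were raised, Tns3 was at 0.928 and Itpr2 at 1.41 times the P6 median, against 3.93 for Gpr17 and 6.52 for Enpp6.

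Of 19 other myelin genes, 17 were higher at P15 than at P6 and 0 lower, beside 30.4% and 31.4% of all genes, and 13 rose by over 2-fold (4.87% of all genes), with a median log2 difference of 1.87. Mag (myelin-associated glycoprotein) rose by 2.42 ± 0.25, Cnp (a phosphodiesterase of myelin) by 1.32 ± 0.20, Apod (apolipoprotein D) by 1.24 ± 0.24 and Mal by 4.18 ± 0.44. Opalin was counted at 0 to 3 fragments in each P6 library and at 17 to 206 in each P15 library. From P15 to 8 weeks 8 of the 19 were lower and 2 higher (median -0.21), beside 23.9% and 24% of all genes. Ugt8a, the enzyme that makes the myelin lipid galactosylceramide, fell by 1.98 ± 0.30 and Cldn11, the claudin of myelin tight junctions, by 1.41 ± 0.34, while Nkx6-2, a homeobox factor of late oligodendrocytes, rose by 1.01 ± 0.28 and Apod rose again by 0.77 ± 0.22. Trf (transferrin), the highest of the list, rose to P15 (1.61 ± 0.13) and did not pass after it (0.26 ± 0.11). Relative to P6, 14 of the 19 were higher at 8 weeks and 0 lower (37.8% and 36.6% of all genes), and with P6 female 6 included 9 were higher and 1 lower. Without P15 males 1 and 2 the number of other myelin genes higher at 8 weeks than at P15 was 5 and the number lower was 5, and without 8-week male 5 the number higher was 4.

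**Figure D4:**
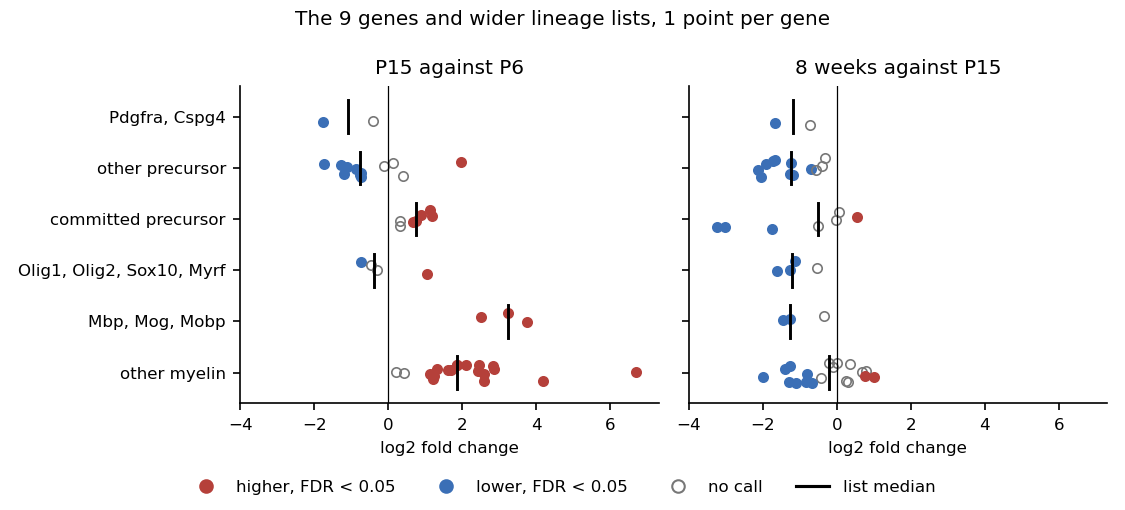
Log2 fold change of every gene of 6 lists for P15 against P6 and for 8 weeks against P15, with 1 point per gene, filled where the adjusted p was below 0.05, and a bar at the list's median. Other myelin genes lie to the right in the first panel (median 1.87) and on both sides of zero in the second (median -0.21), where other precursor genes lie to the left (median -1.25).

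Markers of other brain cells also moved with age. Their counts stand beside the shares of all genes tested. At P15 against P6 30.4% were higher and 31.4% lower. From P15 to 8 weeks these were 24% and 23.9%, and from P6 to 8 weeks 37.8% and 36.6%. The summed level of 6 neuronal genes was 276 to 926 CPM at P6, 89.5 to 693 CPM at P15 and 48.4 to 212 CPM at 8 weeks. Between P6 and P15, however, Tubb3 and Stmn2 fell and Syt1 and Snap25 rose, with a list median of -0.01, and from P15 to 8 weeks 5 of the 6 fell. The sum of 9 genes of immature neurons was 661 to 2037, 124 to 845 and 89 to 206 CPM, and that of 8 astrocyte genes 514 to 1324, 925 to 7581 and 1960.3 to 5717 CPM. Fibroblasts, which can also express Pdgfra, gave sums of 79.5 to 289, 76.9 to 275 and 15.6 to 76.2 CPM over 6 genes, and all 6 were lower at 8 weeks than at P6. Of 7 mural cell genes, 0 were called between P6 and P15 or between P15 and 8 weeks by edgeR. At an unadjusted p below 0.05 there were 0 and 1, beside 11449 and 9642 of all 17612 genes tested. From P6 to 8 weeks 2 of the 7 had such a p, beside 13357 of the 17612. By the adjusted p 1 of the 7 was lower and 0 higher, with a list median of -0.43. The gene was Rgs5, a pericyte marker, at -1.25 ± 0.34 (SE; edgeR adjusted p = 0.0015). The other 6 did not pass and lay on both sides of zero, from -0.68 (Kcnj8) to 0.65 (Vtn) and 0.84 (Acta2). The mural sums were 156 to 1322, 149.6 to 1271 and 192 to 1229 CPM. Endothelial genes (7) summed to 45.6 to 124, 85.6 to 252 and 118 to 320.2 CPM, and genes of monocytes and macrophages (9) to 724 to 1577, 289 to 1031 and 366 to 719 CPM. Of these 9, 4 rose and 3 fell from P6 to P15. From P15 to 8 weeks Ccr2 and Ly6c2, genes of circulating monocytes, rose and 6 fell, and relative to P6 both were higher at 8 weeks and 4 were lower. Schwann cells, the myelinating cells of nerves, share Sox10 and Mbp with oligodendrocytes. Of their markers, 3 summed to 8.33 to 15.5 CPM at P6, 4.62 to 25.6 CPM at P15 and 5.03 to 16.7 CPM at 8 weeks, with Ncmap at 0 in some 8-week libraries. The part of these cells in the levels of the 9 genes was not tested.

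Mice of the same age differed in these genes by several fold, and the genes varied together among them. Over the 36 pairs of the 9 genes, Pearson's r in log2 CPM was positive for 31 pairs over the 10 P6 mice, 36 over the 12 P15 mice and 34 over the 12 mice of 8 weeks, and 15, 26 and 22 pairs passed the permutation test after adjustment over the 108 tests. The share of passing pairs among all genes was not counted, so these numbers cannot be read as particular to the 9. The labels name no batch within an age. At P15 the count rested in part on males 1 and 2, since 14 pairs passed without them in place of 26 and the median r was 0.64 in place of 0.81. All 3 pairs of myelin genes passed at each age. Mbp and Mog were at r = 0.83 and rho = 0.82, permutation p = 0.00386 and 0.00562, adjusted 0.00845 and 0.0117 at P6. At P15 they had r = 0.81 and rho = 0.84, permutation p = 0.00085 and 0.00126, adjusted 0.00235 and 0.00393. At 8 weeks they were at r = 0.92 and rho = 0.87, permutation p = 2e-05 and 0.00057, adjusted 0.000144 and 0.00224. Without the 2 mice farthest from the median of Mbp these were r = 0.77, 0.78 and 0.93. At P15 without males 1 and 2, 2 of the 3 myelin pairs passed, and Mbp with Mog did not (r = 0.54, permutation p = 0.108, adjusted 0.177).

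Pooled over the 4 lineage factors, the median correlation was higher with the precursor genes than with the myelin genes at P6, and lower at 8 weeks, with Myrf and Olig2 as exceptions. Over the 8 pairs of a factor and a precursor gene the median r was 0.94 at P6, 0.85 at P15 and 0.50 at 8 weeks, with 6, 7 and 2 pairs past the permutation test. Over the 12 pairs of a factor and a myelin gene it was 0.20, 0.73 and 0.83, with 1, 8 and 11 pairs past the test. At P6 Myrf had r = 0.75 with Mog, the 1 pair that passed, and 0.62 with Pdgfra and 0.59 with Cspg4. At 8 weeks Olig2 had r = 0.89 with Pdgfra and 0.59 to 0.73 with the myelin genes. Sox10 and Pdgfra had r = 0.96 and rho = 0.90, permutation p = 9e-05 and 0.0007, adjusted 0.000423 and 0.00252 at P6, and r = 0.52 and rho = 0.57, permutation p = 0.0846 and 0.0559, adjusted 0.117 and 0.0805 at 8 weeks. For Sox10 and Mobp the values were r = -0.19 and rho = 0.21, permutation p = 0.593 and 0.559, adjusted 0.667 and 0.586 at P6, and r = 0.93 and rho = 0.89, permutation p = 2e-05 and 0.00022, adjusted 0.000144 and 0.00148 at 8 weeks. The low values between factors and myelin genes at P6 rested on few mice. Without the 2 mice farthest from the median of the factor, the median over the 12 pairs at P6 was 0.66, and Olig2 with Mobp went from r = -0.07 to 0.87. At P15 without males 1 and 2 the median over the 12 pairs was 0.44, and 1 pair passed. Whether the correlations differ between ages was not tested.

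Some of the 9 genes also passed with marker lists of other cells. By Pearson's r these were Cspg4, Olig1 and Olig2 at P6, all 9 genes at P15 and all but Mog at 8 weeks, each with at least 1 of 5 lists. Cspg4 passed by Pearson's r with both the mural and the astrocyte list at every age. Against the mean log2 CPM of the 7 mural genes it had r = 0.90 and rho = 0.72, permutation p = 0.0011 and 0.0228, adjusted 0.00979 and 0.0836 at P6, r = 0.92 and rho = 0.97, permutation p = 1e-05 and 1e-05, adjusted 0.00045 and 0.000675 at P15, and r = 0.97 and rho = 0.94, permutation p = 1e-05 and 3e-05, adjusted 0.00045 and 0.00135 at 8 weeks, adjusted over 135 such tests of the 9 genes against 5 lists. Without the 2 mice farthest from the median of Cspg4, r was 0.73, 0.90 and 0.95. Pdgfra with the same markers had r = 0.68 and rho = 0.58, permutation p = 0.0403 and 0.0884, adjusted 0.109 and 0.208 at P6, r = 0.82 and rho = 0.78, permutation p = 0.00116 and 0.00365, adjusted 0.00979 and 0.0448 at P15, and r = 0.37 and rho = 0.30, permutation p = 0.24 and 0.342, adjusted 0.4 and 0.525 at 8 weeks. Without the 2 mice farthest from the median of Pdgfra, r was 0.43, 0.67 and 0.15. Pdgfra thus passed with the mural markers at P15 and not at P6 or 8 weeks, and whether it differs from Cspg4 in this was not tested. Lineage factors also passed with the mural markers by r. They were Olig1 and Olig2 at P6 (r = 0.79 and 0.84, permutation adjusted p = 0.0402 and 0.026) and Olig1, Olig2 and Sox10 at P15 (r = 0.84, 0.88 and 0.79, permutation adjusted p = 0.0063, 0.00297 and 0.0158). At 8 weeks Cspg4 was the 1 gene of the 9 to pass. By rho 0, 9 and 1 of the 9 passed with the mural list at P6, P15 and 8 weeks. Cspg4 and Pdgfra themselves had r = 0.89 and rho = 0.90, permutation p = 0.00015 and 0.00068, adjusted 0.000523 and 0.00252 at P6, and r = 0.43 and rho = 0.21, permutation p = 0.16 and 0.515, adjusted 0.206 and 0.545 at 8 weeks.

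With the 8 astrocyte genes Cspg4 had r = 0.85, 0.84 and 0.78 at P6, P15 and 8 weeks (permutation adjusted p = 0.0178, 0.00924 and 0.0187), and 0.63, 0.74 and 0.45 without the 2 farthest mice. Olig1 and Olig2 also passed with this list at P6, Pdgfra, Olig1, Olig2 and Sox10 did so at P15, and Pdgfra did so at 8 weeks. The r of these pairs was 0.69 (Sox10) or more, and that of Pdgfra at 8 weeks went from 0.70 to 0.27 without the 2 farthest mice. By rho 0, 3 and 0 of the 9 genes passed with it at the 3 ages. With the 6 neuronal genes 0 of the 9 passed by r at P6, 4 did at P15 (Pdgfra, Cspg4, Olig1 and Olig2) and 7 at 8 weeks, the exceptions being Cspg4 and Mog. Those 7 ran from r = 0.69 (Pdgfra, permutation adjusted p = 0.0478) to 0.84 (Mobp, permutation adjusted p = 0.0063). By rho 0, 3 and 3 passed with the neuronal list. The fibroblast list passed by r with Cspg4 alone at 8 weeks (r = 0.95 and rho = 0.99, permutation p = 1e-05 and 1e-05, adjusted 0.00045 and 0.000675; r = 0.93 without the 2 farthest mice). At P15 it passed with the 3 myelin genes, Myrf and Sox10, from r = 0.72 (Mog) to 0.86 (Mobp), and at P6 with none. By rho 0, 7 and 1 passed with it. The 3 Schwann cell genes passed by r with Cspg4 at 8 weeks (r = 0.87, permutation adjusted p = 0.00662) and with no gene at P6 or P15, and by rho with 3, 0 and 1. Whether any gene went more with 1 list than with another was not tested.

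**Figure D5:**
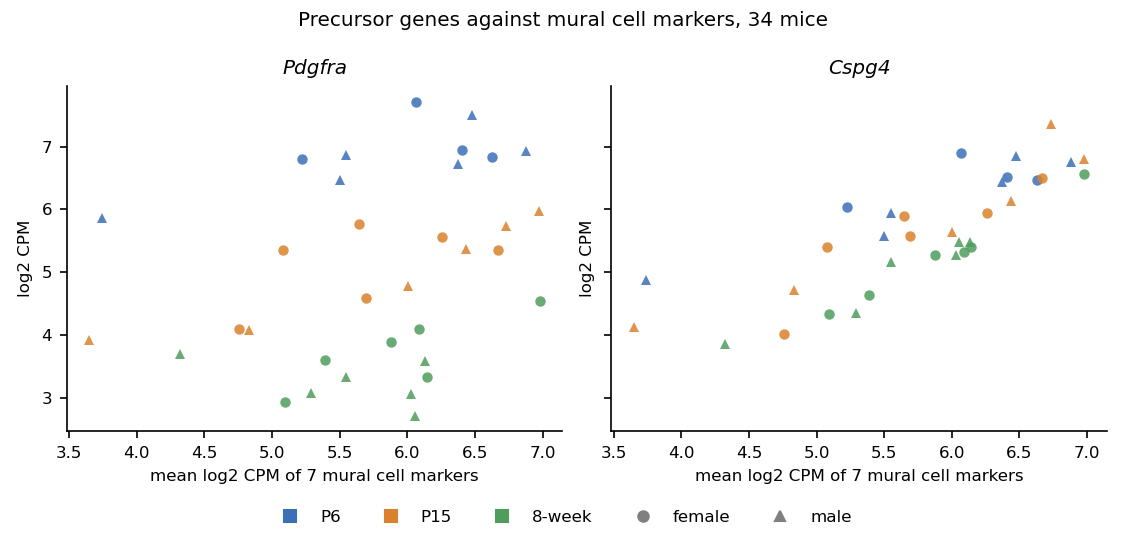
Log2 CPM of Pdgfra (left) and Cspg4 (right) against the mean log2 CPM of 7 mural cell markers, with 1 point per mouse coloured by age and shaped by sex. Cspg4 climbs with the markers within each age (r = 0.90, 0.92 and 0.97 at P6, P15 and 8 weeks), and Pdgfra has r = 0.68, 0.82 and 0.37 in the same order.

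The genes most like the 9 in their variation among mice were found by correlating 17603 other genes over the 34 mice after the mean of each age and sex group was subtracted. These values are descriptions of these libraries. The myelin mean was most like Mal (r = 0.89), Cldn11 (0.89), Bcas1 (0.86), Tspan2 (0.83) and Dbndd2 (0.83), of which all but Dbndd2 were in the lineage lists above. The precursor mean was most like Spry4 (0.96), Caskin2 (0.95), Pcdh1 (0.94), Cacna1h (0.94) and Agrn (0.94), none of which were in the precursor lists. Taken alone, Pdgfra was most like Lhfpl3 (r = 0.95), a gene of the precursor list, and Cspg4 was most like Notch3 (r = 0.96), a gene of the mural list. Myrf was most like Fa2h (r = 0.95), the hydroxylase that acts on myelin lipids, and Mog like Cldn11 (r = 0.96).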

How the data were processed

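The authors sequenced directional mRNA libraries of immunopanned CD45+ cells as paired-end reads, aligned them with STAR to GRCm38/mm10 and counted fragments per gene on the reverse strand with featureCounts; the release of their annotation is not given in the sources used here. The deposited values are raw counts per gene, 1 column per mouse, for 55401 Ensembl genes, of which 55141 were named from GENCODE M21. From these counts, genes at 0.5 CPM or more in at least 5 mice (17612) were kept and scaled by TMM in edgeR 4.0.16 (R 4.3.3). The robust quasi-likelihood fit gave each of 6 age-by-sex groups its own mean, age contrasts averaged the sexes, and a change over 2-fold was tested with glmTreat, both at an adjusted p below 0.05 over all genes. Log2 CPM used a prior count of 2. Ratios used log2 of (counts + 0.5) and permutation tests with 100000 resamples (numpy 2.4.6, scipy 1.17.1). The fit held 34 mice; P6 female 6 was taken as the mouse the study removed, and P6 female 4 is not analysed here. Nothing in the labels says that mice came from separate litters, so p-values, SEs and SDs measure the spread between these mice, and the limit of 3 fragments covers counting error only. No libraries of a group were copies of each other. Same-numbered mice were not treated as pairs. The members and lists were chosen with earlier results of these data known. Named genes were the 9, the 4 highest of each lineage list and its 2 largest rises and falls per contrast among called genes, and the 5 genes most like each mean; likeness to single genes and the examples of marker correlations were chosen after their values were seen. The fit was tested on simulated counts. Of the listed genes, 3 are not reported here and were left out of the lists. Alternatives were limma-voom 3.58.1, DESeq2 1.42.0, other scalings, filters and sets of mice; the sexes without mice other than P6 females were compared after seeing the data.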

Additional observations from a re-analysis of the deposited data

Results flagged for a closer look

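Of 54 sets of mice of 1 age and sex, 4 held a mouse whose gap to its nearest neighbour was large for the range of the group by Dixon's criterion, and chance alone gives about 1 such mouse in 20 groups. Pdgfra in P6 female 5 was at 210.4 CPM beside 112 to 123 CPM in the 3 other P6 females. Cspg4 in 8-week female 1 was at 94.4 CPM beside 20.1 to 42.1 CPM in the other females of that age. Olig1 in P15 male 1 was at 266 CPM beside 34.6 to 115 CPM in the other P15 males, and Mbp in 8-week male 3 at 1226 CPM beside 211 to 563 CPM in the other 8-week males.

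The mouse left out of the comparisons, P6 female 6, carried all 9 genes above the highest of the other P6 mice when the 35 libraries were scaled together. It had 439 CPM of Pdgfra against a highest value of 215 in the others, 208 of Cspg4 against 122, 341 of Olig1 against 214, 112 of Olig2 against 63.7 and 81.7 of Sox10 against 39.8. Myrf was at 46.8 CPM against 10.8, Mbp at 768 against 332, Mog at 8.61 against 2.6 and Mobp at 95.3 against 33.4. In this library the sums of neuronal, astrocyte, fibroblast and Schwann cell markers also lay above all other P6 mice, those of microglia and of monocytes and macrophages lay below all of them, and those of mural and endothelial cells lay within their range.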

How the results depend on the processing

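Of 1215 alternative values of the 27 age differences of the 9 genes, 1191 kept their direction and their side of the threshold, 18 passed only under the alternative, 3 passed only in the reported fit and 3 changed sign. For each difference, 34 of the alternatives left out 1 mouse, also of an age not compared, and 11 were other settings or sets of mice. Fits without 1 mouse share most of their data with the reported fit, so most of these values could move little. Counts of the 9 genes moved as follows. Without P15 males 1 and 2 (chosen after seeing the data), 4 were lower at P15 than at P6 in place of 2. Those lower by over 2-fold at 8 weeks than at P15 numbered 0 in place of 1 under limma-voom, DESeq2 and without P15 males 1 and 2, and 0 to 1 without 1 mouse. Those higher by over 2-fold at 8 weeks than at P6 numbered 1 in place of 2 under limma-voom. With all 35 mice, 3 committed precursor genes in place of 5 were higher at P15 than at P6, and at 8 weeks against P6 9 other myelin genes in place of 14 were higher and 1 in place of 0 was lower. Other myelin genes higher at 8 weeks than at P15 numbered 5 in place of 2 without P15 males 1 and 2 (those lower, 5 in place of 8), and 2 to 4 without 1 mouse. With at least 10 counts in every mouse, 14 of the 19 other myelin genes were left, and 8 in place of 14 were higher at 8 weeks than at P6.

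The ratio of Mog to Cspg4 between P15 and 8 weeks was -0.72 without P15 males 1 and 2, and from -1.13 to -0.78 without 1 mouse. Without 1 mouse the same step ran from -1.03 to -0.61 for Mbp to Cspg4, and 2 ratios that were not called changed sign, Mog to Pdgfra (-0.040 to 0.24) and Mobp to Cspg4 (-0.19 to 0.25). Myrf at 8 weeks against P6, also not called, ran from -0.24 to 0.011 without 1 mouse, and was -0.60 with all 35 mice. From P6 to 8 weeks the precursor mean changed by -2.26, by -3.38 from Pdgfra alone and by -1.14 from Cspg4 alone, and myelin minus precursor by 4.37, 5.50 and 3.25. The cause of these changes was not tested.

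Same-numbered mice of different groups had a median correlation of deviations of 0.03 over 80 pairs, 27 of them over 0.1. Over 400 pairs with other numbers the median was -0.01, and 118 pairs were over 0.1. Of the 34 mice, 2 went best with their own number. With the replicate number as a block, Cspg4 at 8 weeks against P15 was -0.77 (edgeR adjusted p = 0.0366) and passed, and no other call on the 9 genes changed. Depth limited Opalin at P6, at 0 to 3 fragments a library.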
